A study of Mus musculus with 2 samples.

Results

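Immediate-early-high endothelial cells were the adrenal endothelial cells chosen by their counts of Fos, Fosb and Egr1 transcripts, so that the level of these 3 genes is a description and not a finding. A cell was included when these genes together held at least 4 unique molecular identifiers (UMIs, the count of captured transcript molecules) and at least 0.2% of its UMIs. It also needed at least 1 UMI of Pecam1, Cdh5 or Kdr, which mark endothelium, and no UMI of the macrophage genes C1qa, C1qb and Tyrobp. Of 10083 barcodes in all, 424 met the rule, 305 in the wild-type (WT) library and 119 in the VEGF/LysM library. Within each library these members were set against the endothelial cells that passed the same filters but not the gate of Fos, Fosb and Egr1 (the other cells, 5600 in WT and 3469 in VEGF/LysM).

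The study sorted viable CD31+ CD45- cells from adrenal glands of female mice aged 12 weeks and sequenced them with the 10x Genomics method. Its question was what macrophage VEGF-A contributes to the variety of endothelial cells in this gland. There was 1 library of the wild-type genotype and 1 of the genotype labelled VEGF/LysM. LysM is a name of the gene Lyz2, which macrophages and granulocytes express, but the sources used here give neither the allele and its driver nor how many mice were pooled. With 1 library per group there was no replicate check, so that each difference describes these libraries and not the genotypes, and no p-value is given. Intervals are 95% intervals and cover counting error only.

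Immediate-early genes are transcribed within minutes of a stimulus, from regulators already present in the cell, with no need for new protein. They encode transcription factors of the AP-1 (Fos and Jun), EGR, NR4A and KLF families, and feedback regulators that dephosphorylate the kinases upstream or destroy the short-lived mRNAs. In endothelium they are known to respond to VEGF-A, shear stress, cytokines and the handling of tissue during cell isolation, and which of these acted on the cells here was not tested. The adrenal cortex is supplied by fenestrated capillaries fed by arterioles of the capsule and drained through the medulla by a central vein.

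The members made up 5.17% of the WT endothelial cells (305 of 5905, Clopper-Pearson interval 4.61 to 5.76). They were 3.32% of the VEGF/LysM endothelial cells (119 of 3588, interval 2.76 to 3.96). The gate depended on depth. Members held a median of 1643 UMIs in WT and 3237 in VEGF/LysM, the other endothelial cells 1168.5 and 2326. Members were 1.33% of WT cells with 500 to under 1000 UMIs and 10.5% of those with 2000 to under 4000. The corresponding shares in VEGF/LysM were 0.870% and 3.72%. With every cell thinned to 1000 UMIs, which left out 2036 WT and 230 VEGF/LysM endothelial cells, a gate of 4 of these 1000 UMIs gave shares of 3.08% (2.55 to 3.67) and 1.55% (1.16 to 2.03). A gate of 2 of 1000, the same percentage as the rule's minimum, gave 13.5% (12.5 to 14.7) and 6.85% (6.02 to 7.76). The share was lower in the VEGF/LysM library under each of these gates, by more than counting error. Mitochondrial transcripts took a median of 1.59% and 1.85% of the UMIs of members, and 1.70% and 1.89% of those of the other cells.

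The gate divided a continuous range. The median member held 5 gate UMIs in WT and 8 in VEGF/LysM, the highest 29 and 36. Just inside it were 100 WT and 8 VEGF/LysM members with exactly 4 gate UMIs, and just outside it 217 and 136 endothelial cells with 3. A further 89 and 181 cells had at least 4 gate UMIs but under 0.2% of their total, and 179 and 19 had at least 0.2% but under 4 gate UMIs. The UMI minimum thus left out more cells in WT and the percentage more in VEGF/LysM. Egr1 was the most abundant gate gene in 179 WT and 66 VEGF/LysM members, Fos in 118 and 52, and Fosb in 8 and 1. All 3 genes were found together in 58 WT and 44 VEGF/LysM members. The members held 40.6% and 33.8% of all gate UMIs of the endothelial cells, and 69.0% and 70.5% of endothelial cells had no gate UMI. No member barcode occurred in both libraries, although 10 barcodes of the files did. Cells with a C1qa, C1qb or Tyrobp UMI, which the rule left out, met the gate of Fos, Fosb and Egr1 in 24 of 114 cases in WT and 9 of 127 in VEGF/LysM.

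The rule required a UMI of Pecam1, Cdh5 or Kdr, which are 3 of the 18 pan-endothelial genes, so that the count and median of this list are in part fixed by it. None of the 18 pan-endothelial genes was at least 1.5-fold higher or lower in both libraries, and their median log2 ratio of members to other cells was -0.12 in WT and -0.11 in VEGF/LysM. Flt1, a VEGF-A receptor that the rule did not use, stood at 3048 CPM (UMIs summed over the cells and scaled to one common total, gate genes left out) in WT members and 3295 CPM in the other WT cells, and at 2986 and 3266 CPM in VEGF/LysM. Emcn, a sialomucin of capillaries and veins, stood at 2579 and 2683 CPM in WT and at 2618 and 2612 CPM in VEGF/LysM. Plvap, which forms the diaphragms of fenestrae, had log2 ratios of -0.07 in both. The list of 12 fenestral and caveolar genes to which it belongs had medians of -0.07 in WT and -0.35 in VEGF/LysM. None was at least 1.5-fold higher or lower in both libraries. In VEGF/LysM 3 were at least 1.5-fold lower and none higher, against 14.8% and 8.52% of all measured genes.

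A gene was counted as higher or lower when its CPM differed at least 1.5-fold in the same direction in both libraries. Of 10670 genes with at least 50 UMIs in each library, 158 (1.48%) were higher and 302 (2.83%) lower. In 1 library alone the shares were 5.39% higher and 11.1% lower in WT, and 8.52% and 14.8% in VEGF/LysM. A further 0.853% were higher in WT and lower in VEGF/LysM, and 1.26% the reverse. Among the 7542 genes that also reached 20 CPM, 1.15% were higher and 1.26% lower. Genes with few counts contribute to the larger total, since 298 genes were higher with a minimum of 20 UMIs.

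**Figure D1:**
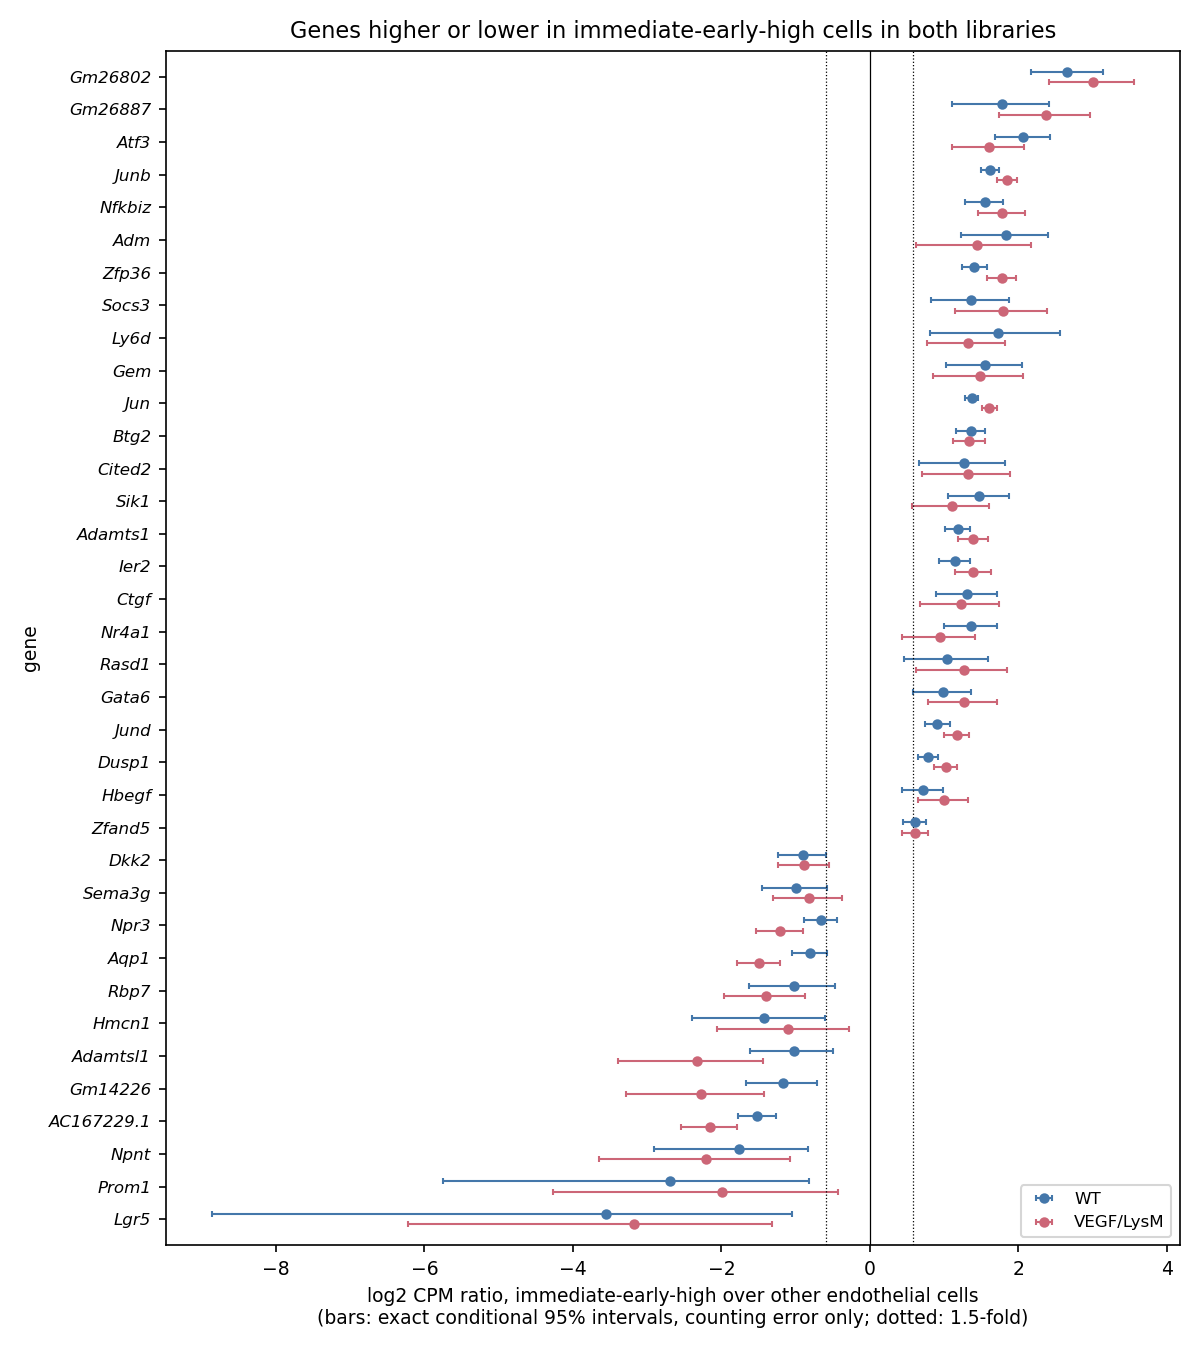
Log2 CPM ratio of immediate-early-high to other endothelial cells (x axis) for the 24 higher and 12 lower named genes (y axis), in WT (blue) and VEGF/LysM (red), with exact conditional 95% intervals and dotted lines at 1.5-fold. In both libraries Gm26802 lies farthest to the right (2.66 and 3.00) and Lgr5 farthest to the left (-3.55 and -3.18, from 1 and 2 member UMIs).

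Among the transcription factors of the response, 9 of 26 measured genes were higher in both libraries, against 1.48% of all measured genes, and none was lower in both. The median log2 ratio of the list was 0.67 in WT and 0.59 in VEGF/LysM, against -0.03 and -0.04 over all measured genes. Since AP-1 and EGR genes are induced together, this describes what accompanies the gate and is no independent support of it. Jun, a partner of Fos in AP-1, was at 2171 CPM in WT members and 840 CPM in the other WT cells (log2 1.37, 1.28 to 1.46), and at 2284 and 748 CPM in VEGF/LysM (log2 1.61, 1.51 to 1.71). Junb, a further AP-1 partner, was at 1256 and 410 CPM in WT (log2 1.62) and at 1258 and 349 CPM in VEGF/LysM (log2 1.85). Member levels of both genes were thus close in the 2 libraries. Jund was less far apart, at 621 and 330 CPM in WT and 779 and 346 CPM in VEGF/LysM. Atf3, a stress-induced factor of the same leucine-zipper class, had log2 ratios of 2.06 (1.69 to 2.42) and 1.61 (1.11 to 2.08). Ier2 had ratios of 1.15 and 1.39, and the nuclear receptor gene Nr4a1 of 1.36 and 0.95. Myc, Cebpd and Csrnp1 completed the 9.

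Other factors of the list were not 1.5-fold apart in the same direction in both libraries. Klf2, the flow-induced factor of quiescent endothelium, was at 617 CPM in WT members and 516 CPM in the other WT cells, and at 643 and 613 CPM in VEGF/LysM (log2 0.26 and 0.07). Klf4 had log2 ratios of 0.67 and 0.39, and Klf6 of 0.44 and 0.23. Maff had 1.45 in WT and -0.20 in VEGF/LysM, Nr4a2 0.97 and -0.26, and Cebpb 0.69 and -0.26. VEGF/LysM members held 3, 11 and 29 UMIs of these last 3 genes, and the difference between libraries was not tested. Crem, which makes the repressor ICER, had -0.01 and -0.93.

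Of 31 feedback regulators, 10 were higher and none lower in both libraries, against 1.48% and 2.83% of all measured genes, with medians of 0.33 in WT and 0.50 in VEGF/LysM. Zfp36, which binds AU-rich mRNAs and speeds their decay, was at 633 and 239 CPM in WT members and other cells (log2 1.41, 1.24 to 1.57), and at 620 and 181 CPM in VEGF/LysM (1.78, 1.58 to 1.97). Btg2, an antiproliferative gene that recruits deadenylases, had ratios of 1.36 and 1.34. Socs3, an inhibitor of cytokine signalling, had 1.36 (0.49 in WT with the gate of 4 of 1000 UMIs after thinning) and 1.79, and Sik1, a kinase that restrains CREB coactivators, 1.47 and 1.10. Dusp1, a phosphatase of MAP kinases, was abundant in all cells, at 939 and 544 CPM in WT and 875 and 431 CPM in VEGF/LysM (log2 0.79 and 1.02). With a gate of 8 UMIs and 0.5% the VEGF/LysM ratio of Dusp1 was 0.30. Ier3, Errfi1, Ppp1r15a, Gadd45g and Tob1 were the other 5. The inhibitors of the ERK pathway were close to the other cells: Dusp6 had ratios of 0.16 and 0.09, Spry1 of 0.22 and 0.38, and Spry4 of 0.23 and 0.29. Dusp1 overlaps Ergic1 and other annotated genes, so its counts are uncertain, as are those of Junb, Jun, Zfp36, Jund, Atf3, Adm, Gata6 and Ctgf, each of which overlaps a gene on the other strand. Lgr5, Npnt, AC167229.1, Adamtsl1, Npr3, Prom1 and Hmcn1, described further on, also overlap other annotated genes. The sources used here do not say whether counting used strand.

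To show regulatory sequence of these genes, promoters were searched for motifs. The cAMP response element (CRE, TGACGTCA, a palindrome and so the same on both strands), to which CREB and ATF proteins bind, was in the promoter of 7 of the 26 measured feedback regulators with a RefSeq promoter sequence (26.9%), namely Btg2, Dusp1, Dusp8, Errfi1, Plk2, Ppp1r15a and Rcan1. Of 10672 measured genes, gate genes included, 8186 had a promoter sequence, and 3.63% of these held a CRE. Of the genes higher in both libraries 113 had a promoter sequence, and 5.31% of these held one. A gene was counted when any of its promoter windows held the motif. Windows ran from 250 bases before the annotated start to 50 after it. The EGR site (GCGTGGGCG or GCGGGGGCG, either strand) was found for 6 of the 18 transcription factor genes with a promoter. It was found for 7.98% of all genes with a promoter and 7.96% of those higher in both libraries. The AP-1 site TGANTCA shares its TGA and TCA ends with the CRE but has another spacing. It was found for 5.91% of all genes with a promoter and 3.54% of those higher in both libraries. None of the 14 named higher genes with a promoter held it. The CArG box, bound by serum response factor, was found for 1.51% of all genes with a promoter and 2.65% of those higher in both libraries. Among the named higher genes it was in Zfp36 only. A match is a run of letters and was not tested for binding. The 250 bases before the start of 4 genes higher in both libraries follow, 5′ to 3′ on the gene's strand (RefSeq, GRCm38.p6), to show where these motifs lie. Capitals mark a CRE in the first 3, and in Zfp36 an EGR site followed by a CArG box.
Btg2, chr1:134079156-134079405, minus strand: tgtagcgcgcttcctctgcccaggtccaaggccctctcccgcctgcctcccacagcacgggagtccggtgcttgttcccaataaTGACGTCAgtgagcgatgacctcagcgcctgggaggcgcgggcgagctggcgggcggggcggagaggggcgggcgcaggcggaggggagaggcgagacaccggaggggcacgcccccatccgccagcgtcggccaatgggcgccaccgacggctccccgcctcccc
Dusp1, chr17:26508473-26508722, minus strand: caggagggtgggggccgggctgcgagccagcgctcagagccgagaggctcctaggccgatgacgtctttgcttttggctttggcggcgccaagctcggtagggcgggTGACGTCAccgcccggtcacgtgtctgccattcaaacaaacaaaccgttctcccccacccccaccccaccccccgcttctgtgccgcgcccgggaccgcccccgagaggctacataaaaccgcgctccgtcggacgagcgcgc
Ppp1r15a, chr7:45526269-45526518, minus strand: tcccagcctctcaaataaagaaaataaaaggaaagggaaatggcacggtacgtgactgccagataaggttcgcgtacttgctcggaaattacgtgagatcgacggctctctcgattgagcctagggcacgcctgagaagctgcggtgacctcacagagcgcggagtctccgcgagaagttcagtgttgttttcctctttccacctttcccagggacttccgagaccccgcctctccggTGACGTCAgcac
Zfp36, chr7:28379229-28379478, minus strand: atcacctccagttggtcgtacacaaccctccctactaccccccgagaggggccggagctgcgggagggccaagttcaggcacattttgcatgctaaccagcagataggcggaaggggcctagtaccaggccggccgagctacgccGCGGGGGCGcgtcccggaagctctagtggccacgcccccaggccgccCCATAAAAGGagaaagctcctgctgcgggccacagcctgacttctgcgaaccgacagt

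The CRE began 166 bases before the start of Btg2, 143 before that of Dusp1 and 12 before that of Ppp1r15a. Ratios of Btg2 and Dusp1 are given above, and Ppp1r15a, a phosphatase subunit that restores translation after stress, had 0.76 and 0.95. The 4 further genes with a CRE had log2 ratios in WT and VEGF/LysM of 0.68 and 1.32 for Errfi1, 0.33 and 0.60 for Plk2, 0.21 and 0.21 for Rcan1, and 0.78 and -0.59 for Dusp8.

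Of 18 measured secreted and matrix genes of the early response, 7 were higher and none lower in both libraries, against 1.48% and 2.83% of all measured genes, with medians of 0.71 and 0.52. Adamts1, a protease that cleaves versican and binds VEGF-A, was at 621 and 273 CPM in WT and 551 and 211 CPM in VEGF/LysM. The matricellular genes Cyr61 and Ctgf had log2 ratios of 1.84 and 1.31 in WT and 0.91 and 1.23 in VEGF/LysM. Hbegf, a ligand of the EGF receptor, had 0.72 and 0.99 (0.57 and 0.33 with a gate of 8 UMIs and 0.5%), Edn1, the vasoconstrictor endothelin, 0.84 and 1.05, Bmp2 0.61 and 0.72, and Thbs1 0.70 and 1.08. Ctgf in VEGF/LysM rested on few cells: without the cell with most of its UMIs the ratio was 0.54, and with the gate applied after thinning it was -1.78. Other members of this group differed between libraries, with Rnd1 at 2.03 and 0.11, Plau at 1.35 and -0.02, and Adamts9 at 0.08 and -1.11. Adm, the vasodilator adrenomedullin, from the hypoxia list, had ratios of 1.83 and 1.44, of which the VEGF/LysM one was 0.023 with the gate of 4 of 1000 UMIs after thinning. The other 12 measured hypoxia genes were not at least 1.5-fold apart in the same direction in both libraries, and the list's medians were 0.02 and -0.15.

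Of 18 NF-kB and inflammatory genes, 8 were at least 1.5-fold higher and none lower in WT, against 5.39% and 11.1% of all measured genes. In VEGF/LysM 1 was higher and 3 were lower, near the 8.52% and 14.8% of all measured genes. The medians were 0.53 and -0.12, and the VEGF/LysM median ranged from -0.20 to 0.18 over the alternatives. Nfkbiz, an inhibitor-like coactivator of NF-kB, was the 1 gene higher in both libraries, at 281 and 96.2 CPM in WT (log2 1.55) and 247 and 72.1 CPM in VEGF/LysM (log2 1.78). Nfkbia, the classical inhibitor, had 0.55 and -0.05. Tnfaip3 had 0.86 and 0.07, Icam1 0.70 and 0.27, Tnf 1.64 and -0.20, and Cxcl10 1.47 and -0.27. Low counts limited the chemokines and Tnf in VEGF/LysM members, which held 1 UMI of Ccl2, 2 of Tnf and 3 of Cxcl10, against 12, 12 and 21 in WT. The difference between libraries was not tested.

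Further response lists were counted by genes at least 1.5-fold apart in both libraries, beside 1.48% higher and 2.83% lower among all measured genes. Of 16 heat-shock and chaperone genes only Hspa1a was higher in both libraries (0.70 and 0.93), although 13 and 14 of the 16 were above the level of the other cells and the medians were 0.36 and 0.29. Hsp90ab1 had ratios of 0.35 and 0.55 and Hspb1 of 0.66 and 0.13. Of 12 genes of the unfolded-protein and integrated stress responses, none was higher and Asns was lower in both, with Atf4 at 0.35 and 0.26 and Ddit3 at 0.30 and -0.06. Among 11 targets of p53 only Btg2 was higher in both, and Cdkn1a stood at 0.39 and 0.37. In WT 1 of the 11 was higher and 1 lower, against 5.39% and 11.1% of all measured genes. In VEGF/LysM 3 were higher and none lower, against 8.52% and 14.8%. None of 19 interferon-induced genes was called in either direction. Of 15 glucocorticoid-induced genes 3 were higher in both, a larger share than the 1.48%. These were Dusp1, Errfi1 and Cebpd, which also belong to the immediate-early lists above. In WT 3 of the 15 were higher and 2 lower (median 0.15), against 5.39% and 11.1% of all measured genes. In VEGF/LysM 5 of the 15 were higher and none lower (median 0.37), against 8.52% and 14.8%. Fkbp5 had 0.02 and 0.20, and Tsc22d3 -0.07 and -0.18. Of 15 genes known to respond to VEGF-A, Nr4a1 and Adamts1 were higher in both libraries. Both also belong to the early-response lists above, and the medians of the VEGF-A list were 0.18 in WT and 0.006 in VEGF/LysM. Esm1, the tip-cell marker endocan, had -0.31 and -0.20. Kdr, which the rule itself used and which is therefore a description only, had 0.05 and 0.01.

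**Figure D2:**
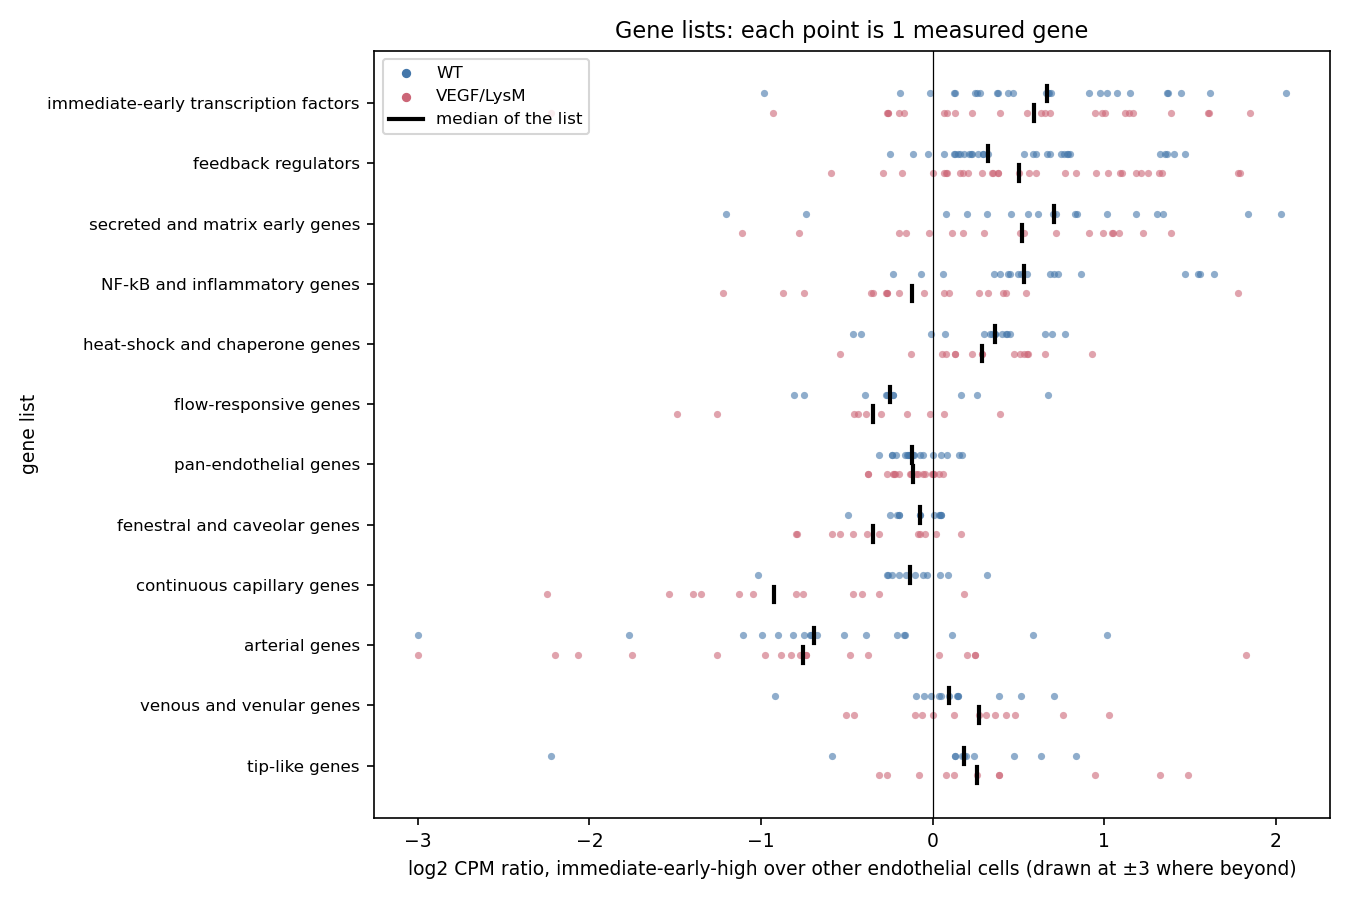
Log2 CPM ratio of immediate-early-high to other endothelial cells (x axis) for each measured gene (points) of 12 gene lists (y axis), in WT (blue) and VEGF/LysM (red), with list medians as black bars. The first 3 lists have medians above 0 in both libraries (0.67 and 0.59, 0.33 and 0.50, 0.71 and 0.52), the NF-kB list is at 0.53 and -0.12, and the arterial list is at -0.69 and -0.76.

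A few of the genes farthest from the other cells need separate mention. Gm26802, a long non-coding RNA on chromosome 7 (19298260 to 19300770, minus strand, GRCm38), was at 96.6 CPM in WT members and 15.3 CPM in the other WT cells, and at 91.5 and 11.4 CPM in VEGF/LysM. It lies 1926 bases downstream of Fosb on the same strand. Its counts and transcripts reading on from Fosb cannot be told apart here, so it is not independent of the gate. Gm26887, a long non-coding RNA on chromosome 8, had ratios of 1.78 and 2.37. Gem and Rasd1, both small GTPase genes, had 1.56 and 1.48, and 1.04 and 1.26. Gata6, a zinc-finger factor of endothelium among other tissues, had 0.98 and 1.26, and Zfand5, which activates the proteasome, 0.60 and 0.61. With a gate of 8 UMIs and 0.5% the WT ratio was 0.25 for Rasd1 and 0.40 for Zfand5. Ly6d rested on 1 cell per library and turned to -2.17 and -1.18 without it. Cited2 in VEGF/LysM turned to -0.26 without 1 cell.

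Jun and Junb were higher with each step in gate transcripts, below the gate too. Endothelial cells with at least 1000 UMIs were sorted by the share of Fos, Fosb and Egr1 into 5 bands, from none to at least 0.5%. The share was that of the whole cell, and only the CPM values came from counts thinned to 1000 UMIs. The bands were thus not matched for depth. Median depth before thinning was 1362 UMIs in the first and 1718 in the third WT band, and 2176 in the first and 3218 in the second VEGF/LysM band. Jun stood at 624, 1214, 1744, 2120 and 2876 CPM in WT and at 423, 1169, 1675, 2049 and 3111 CPM in VEGF/LysM. The summed transcription factor list went from 3287 to 10713 CPM in WT and from 3182 to 9151 CPM in VEGF/LysM. Zfp36 went from 146 to 791 CPM and from 100.2 to 1189.6 CPM. The last band held only 28 WT and 11 VEGF/LysM cells, and over the first 4 bands alone, which hold at least 114 cells each, Jun and Junb were higher at each step in both libraries. Kdr, 1 of the rule's own genes and so a description only, was at 2435 to 2628 CPM in WT and 2144 to 2224 CPM in VEGF/LysM. Klf2 was at 514, 535, 621 and 647 CPM in the first 4 WT bands and at 652, 613, 674 and 633 CPM in those of VEGF/LysM. In the first 4 bands Npnt, an arterial gene, went from 61.4 to 15.5 CPM in WT and from 88.6 to 26.4 CPM in VEGF/LysM.

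**Figure D3:**
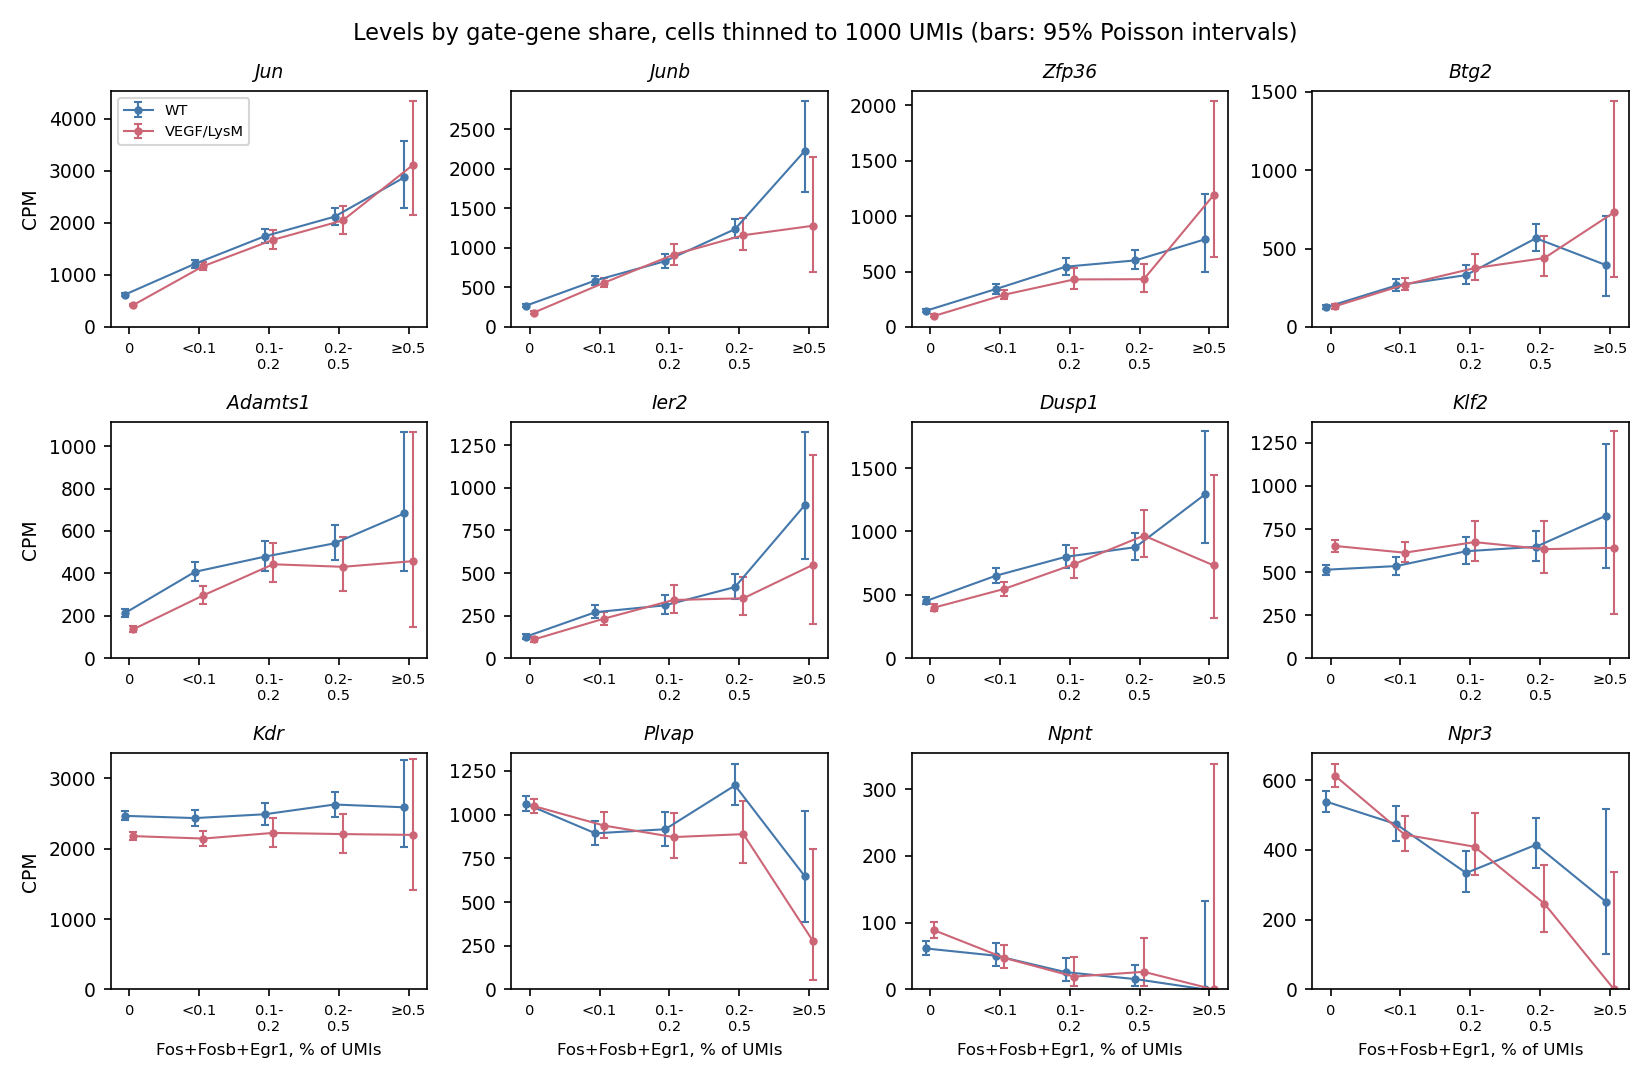
CPM (y axis, each panel its own scale from 0) of 12 genes in endothelial cells thinned to 1000 UMIs, in WT (blue) and VEGF/LysM (red), with 95% Poisson intervals. The x axis is the percentage of UMIs from Fos, Fosb and Egr1 in the whole cell, before thinning. Jun goes from 624 to 2876 CPM in WT and from 423 to 3111 CPM in VEGF/LysM, and the last band (28 and 11 cells) has wide intervals.

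Arterial genes were lower in the members. Of 18 arterial genes, 8 were lower and none higher in both libraries, against 2.83% of all measured genes lower, with medians of -0.69 in WT and -0.76 in VEGF/LysM. Lgr5, a receptor for R-spondins, had 1 UMI in WT members (1.79 CPM, against 20.97 CPM in the other cells, log2 -3.55, -8.86 to -1.05) and 2 in VEGF/LysM (4.94 and 44.7 CPM, -3.18, -6.23 to -1.32). Npnt, the matrix protein nephronectin, had ratios of -1.77 and -2.20. Sema3g, a secreted semaphorin of arteries, had -0.997 and -0.82, and the Wnt antagonist Dkk2 -0.90 and -0.89. The gap junction genes Gja4 and Gja5 had -0.75 and -0.71 in WT and -1.26 and -2.06 in VEGF/LysM. Hey1, a Notch target, had -0.67 and -0.98, and Ptn -0.81 and -0.74. Mgp went the other way, at 14.3 and 9.56 CPM in WT and 116 and 32.8 CPM in VEGF/LysM, where 1 member held 46.8% of its UMIs. With other cells weighted to the members' own mix of vessel clusters, described next, the arterial medians were -0.50 and -0.63. The 8 lower arterial genes were left out of that clustering, so the matching was made without them.

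Aqp1, the water channel of arterial and continuous capillary endothelium, was lower in members, at 290 and 508 CPM in WT and 252 and 709 CPM in VEGF/LysM. Npr3, the clearance receptor of natriuretic peptides, was at 329 and 521 CPM in WT and 218 and 502 CPM in VEGF/LysM. AC167229.1 and Gm14226, which lead the same vessel cluster as Npr3, were lower too, AC167229.1 with log2 ratios of -1.52 and -2.15. Gm14226 overlaps the gene a on the same strand and its counts are uncertain. Rbp7, a retinol-binding protein of capillaries, had ratios of -1.02 and -1.40. Adamtsl1, Hmcn1 and Prom1 were the remaining lower genes named by the rule, Prom1 with 2 and 3 member UMIs. Continuous capillary genes were otherwise near the other cells in WT (median -0.13) and lower in VEGF/LysM (-0.92). Cd36, a fatty acid receptor, was at 1120 and 1319 CPM in WT and at 732 and 2122 CPM in VEGF/LysM, and Car4 at 82.3 and 84.3 CPM and at 27.2 and 129 CPM. With the cluster mix matched, the VEGF/LysM median was -0.28. Venous and venular genes had medians of 0.10 and 0.27 with none of 13 called. Bgn, a proteoglycan, had 0.15 and 1.03, and Nr2f2, which sets venous identity, 0.03 and 0.76. Of 11 measured tip-like genes 1 was higher and none lower in both libraries, against 1.48% and 2.83% of all measured genes, with medians of 0.18 and 0.26. In WT 2 were higher and 2 lower at 1.5-fold, against 5.39% and 11.1% of all measured genes. In VEGF/LysM 3 were higher and none lower, against 8.52% and 14.8%. The 1 gene higher in both was Kcnj8, a potassium channel subunit that pericytes also express. It was at 85.8 and 55.3 CPM in WT and 116 and 46.4 CPM in VEGF/LysM.

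To see which vessels the members belonged to, endothelial cells were clustered without the gate genes, the response lists and the 460 genes that were higher or lower in both libraries, 689 genes in all. The 11 clusters all came from both libraries except cluster 3, which had 11 WT cells and none from VEGF/LysM. Cluster 2, led by Oit3, Nlgn1, Sema3d and Bgn, held the most members, 107 of 1359 in WT (7.87%, 6.50 to 9.44) and 30 of 441 in VEGF/LysM (6.80%, 4.64 to 9.57). It made up 35.1% of WT members against 23.0% of WT endothelial cells, and 25.2% against 12.3% in VEGF/LysM. Cluster 6, led by Kcnj8, Odc1, Msmp and Kit, had shares of 7.36% (4.98 to 10.4) and 6.90% (4.55 to 9.94). Cluster 5, led by Gm14226, AC167229.1, Npr3 and Cyp26b1, had 2.78% and 1.63%. Cluster 9 was continuous-capillary-like, with Car4, Cd36, Meox2 and Aqp7 among its leading genes, and had 3.94% (2.75 to 5.47) and 1.53% (0.820 to 2.61). Cluster 7, led by Cxcl12, also had continuous capillary genes as its highest list, with higher shares of members. They were 13 of 184 cells in WT (7.07%, 3.82 to 11.8) and 3 of 75 in VEGF/LysM (4.00%, 0.833 to 11.2). Arterial-like cluster 0 had Lgr5, Tspan8, Npnt and Ptn among its leading genes. Arterial genes were its highest list and adrenocortical markers its second. Its shares were 4.84% (2.73 to 7.86) and 3.53% (1.77 to 6.22), within counting error of the whole library. The 8 arterial genes lower in both libraries were left out of the clustering, so this share does not show how many members carry an arterial profile. The median depth of clusters 2 and 6 was 1305 and 1287.5 UMIs in WT, that of clusters 5 and 9 1069 and 919.5 UMIs. Cluster 7 was deeper, at 2516.5 UMIs in WT.

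The shares by cluster were also taken from the thinned cells with the gate of 4 of 1000 UMIs, a higher percentage than the rule's minimum, so that their level cannot be set against the shares above. The share of cluster 2 was 4.81% (3.58 to 6.31) in WT and 2.40% (1.16 to 4.37) in VEGF/LysM, and that of cluster 6 was 3.47% and 2.72%. Cluster 5 had 1.71% and 0.927%. Clusters 2, 6 and 5 thus kept their order in WT, with overlapping intervals for 2 and 6, but in VEGF/LysM clusters 6, 2 and 1 (2.29%) lay within each other's intervals. Cluster 9 then had 3.54% (1.90 to 5.98) in WT and 0.797% (0.293 to 1.73) in VEGF/LysM. Cluster 7 had 4 members of 180 cells in WT (2.22%, 0.609 to 5.59) and none of 75 in VEGF/LysM. Arterial-like cluster 0 had 2 members of 186 cells in WT and 4 of 289 in VEGF/LysM.

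**Figure D4:**
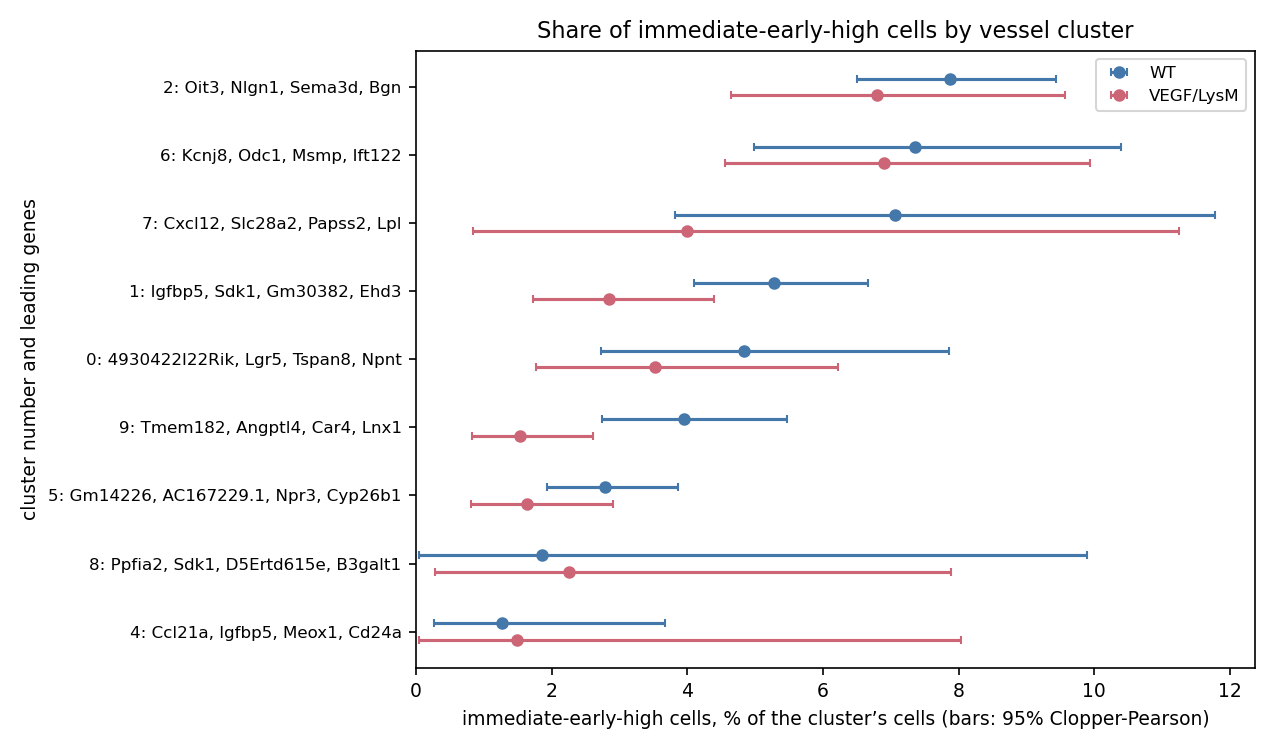
Share of cells that are immediate-early-high (x axis, percent) in each vessel cluster with at least 50 cells in both libraries (y axis, number and leading genes), in WT (blue) and VEGF/LysM (red), with 95% Clopper-Pearson intervals. Clusters 2 (7.87% and 6.80%) and 6 (7.36% and 6.90%) are at the top, and clusters 5 (2.78% and 1.63%) and 4 (1.27% and 1.49%) are low.

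Members were also set against the other cells of their own vessel cluster. The 24 named higher genes were chosen for their ratios in these same cells, so that their counts by cluster are a description and no support. In the clusters with at least 10 members, 7 in WT and 6 in VEGF/LysM, members exceeded the other cells of their own cluster in at least 14 of the 24 named higher genes, and in 23 of 24 in WT clusters 1 and 2. The summed transcription factor list was higher 1.31-fold (WT cluster 7) to 2.29-fold (WT cluster 2). In arterial-like cluster 0, Jun was at 1993 and 785 CPM in WT and 2186 and 630 CPM in VEGF/LysM. In the continuous-capillary-like cluster 9, whose other cells had the lowest Jun of the clusters compared, it was at 1151 and 426 CPM in WT and 881 and 311 CPM in VEGF/LysM. Adamts1 was not higher in every cluster. It was at 976 and 344 CPM in WT cluster 2, but at 327 and 332 CPM in WT cluster 6, at 87.2 and 131 CPM in WT cluster 9 and at 102 and 128 CPM in VEGF/LysM cluster 5.

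Lower vessel genes behaved differently by cluster. Within cluster 0, Aqp1 was at 559 CPM in the 15 WT members and 3310 CPM in the other 295 cells (log2 -2.56), and at 523 and 3009 CPM in VEGF/LysM (-2.52, 11 members). Dkk2 there was at 559 and 1537 CPM and at 729 and 1397 CPM. In cluster 9 Aqp1 was at 1273 and 1854 CPM in WT and 1728 and 1775 CPM in VEGF/LysM. Npr3 in its own cluster 5 was at 1378 and 1693 CPM in WT and at 1491 and 1754 CPM in VEGF/LysM (log2 -0.30 and -0.24). The intervals of Npr3 within cluster 5 included 0 in both libraries, and those of Aqp1 and Dkk2 within cluster 0 did not. Aqp1, Dkk2 and Npr3 were named for their low ratios in these same cells and left out of the clustering. Their values and intervals by cluster are thus a description and no support.

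Members of the libraries were also set against each other. Of 4232 genes with at least 50 UMIs over both groups of members, 209 (4.94%) were at least 1.5-fold higher and 293 (6.92%) lower in VEGF/LysM. Of the 17 transcription factors measured, none was higher and 3 were lower, with a median of -0.03, and of 21 feedback regulators 2 were higher. The log2 ratio of VEGF/LysM to WT members was 0.07 (-0.05 to 0.20) for Jun, 0.00 (-0.16 to 0.17) for Junb, -0.03 for Zfp36 and 0.08 for Btg2. In the other endothelial cells, by contrast, Zfp36 had -0.40 and Junb -0.23. Lower in VEGF/LysM members were Cyr61 (-1.13, -1.79 to -0.51, against -0.21 in the other cells), Csf1 (-1.12, against -0.49), Vcl (-0.98, against -0.05) and Apold1 (-0.83, against -0.11). Nr2f2 was higher (0.62, 0.38 to 0.87, against -0.10). Whether members and other cells differ in these ratios was not tested.

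Vessel genes differed as well. Cyp26b1, which degrades retinoic acid, was at 275 CPM in WT members and 101 CPM in those of VEGF/LysM (log2 -1.44), beside 394 and 104 CPM in the other cells (-1.92). Car4 had -1.60 in members and 0.61 in the other cells, Bmp6 -1.34 and 0.43, and Cd36 -0.61 and 0.69. Cluster 9, which Car4 and Cd36 mark, made up 11.1% of WT and 10.9% of VEGF/LysM members but 14.6% and 23.6% of the endothelial cells. Sox4 had -0.96 and -0.59, Trak2 -1.53 and -0.23, the mitochondrial gene mt-Atp8, which overlaps mt-Atp6, -0.96 and -0.62, and Gm11867, which overlaps other genes, -2.04 and -1.16. Gm26870, which lies in a block of overlapping gene models, had -1.62 and 1.25. Higher were Mgp (3.02), Dlgap1 (2.36), Akr1cl (4.05), the steroid-synthesis gene Hsd3b1 (2.79), and 4 haemoglobin genes. In VEGF/LysM members 1 cell held all 289 UMIs of Hba-a2 and 98.8% of those of Hba-a1, so these haemoglobin values are those of 1 cell, and the near-identical globin copies are uncertain. In VEGF/LysM 1 member also held 63.9% of the Akr1cl, 50.5% of the Hsd3b1 and 51.3% of the Dlgap1 UMIs. Without cells carrying at least 0.5% of their UMIs in transcripts of other cell types, the ratio of VEGF/LysM to WT members was 0.064 for Hsd3b1, 1.55 for Akr1cl, 1.37 for Dlgap1 and 3.72 for Mgp. The 4 haemoglobin genes were then lower in VEGF/LysM, Hba-a2 at -1.33, Hba-a1 at -1.62, Hbb-bs at -0.998 and Hbb-bt at -1.77. The median of 6 measured adrenocortical markers went from 1.80 to 0.056.

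Transcripts of other cell types were found in the members, and their part in the results was not tested beyond leaving such cells out. The summed adrenocortical markers were at 467 CPM in WT members and 433 CPM in the other WT cells, and at 1098 and 607 CPM in VEGF/LysM. Of 8 measured markers, 1 was higher and 1 lower at 1.5-fold in WT (median 0.22), against 5.39% and 11.1% of all measured genes. In VEGF/LysM 5 were higher and none lower (median 1.16), against 8.52% and 14.8%, and all 8 lay above the other cells. The erythroid sums were 334 and 445 CPM in WT, and 4259 and 459 CPM in VEGF/LysM. The mural sums were 191 and 93.8 CPM in WT, and 249.7 and 90.1 CPM in VEGF/LysM, with all Acta2 UMIs of members in 1 cell per library. Kcnj8, given above with the tip-like genes, counts in the mural sums, so they are not of mural transcripts alone. Chromaffin markers were at 0 in members, and fibroblast markers at 5.37 and 44.5 CPM. In all, 5 WT and 4 VEGF/LysM members had at least 0.5% of their UMIs in such a list. Without these members and the like other cells, Jun, Junb, Zfp36, Btg2, Atf3, Nfkbiz, Adamts1 and Ier2 stayed higher, Junb with log2 ratios of 1.64 and 1.86, and 136 genes were higher in both libraries, of which 113 were among the 158.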

How the data were processed

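The authors deposited raw UMI counts, whole numbers for each gene in each cell, for both libraries (8606348 UMIs in WT, 10323972 in VEGF/LysM). The submitters' processing notes name Cell Ranger 7.0.1, Seurat and mm10, and the matrix headers name Cell Ranger 7.0.0, per the file headers. No source used here names the annotation release or the use of intronic reads.

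A barcode had to hold 500 UMIs, 300 genes and no more than 15% mitochondrial UMIs, and 142 barcodes of WT and 14 of VEGF/LysM failed. Counts were summed over cells per library and scaled to CPM without the gate genes. Ratios carry exact conditional binomial intervals, shares Clopper-Pearson intervals. Where a side held no UMI, 3 counts over the group stood in for it, and no fold is given if both sides were at or under 3. Clustering used scanpy 1.11.5 (normalization to 10000, 2000 variable genes, 30 components, 15 neighbours, Leiden resolution 1). Doublets were kept: Scrublet called 0 WT and 2 VEGF/LysM barcodes, and an alternative left out the highest scores at 0.8% per 1000 barcodes. The ratio was tested on simulated counts with known folds.

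Named genes had at least 20 CPM and 1.5-fold in both libraries, ranked by the interval bound nearest 0 (24 higher, 12 lower), without 6 genes more than 5-fold higher in non-endothelial cells. Between libraries, 8 per direction were named. The members and gene lists were chosen with earlier results of these data known. Positions are from GENCODE M21, which matched 54809 of 54838 identifiers.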

Additional observations from a re-analysis of the deposited data

Results flagged for a closer look

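Of the listed genes, 8 were at least 1.5-fold apart from the other endothelial cells in opposite directions in the 2 libraries, which is why they are given here. Among all 10670 measured genes, 0.853% were higher in WT and lower in VEGF/LysM, and 1.26% the reverse. No excess among the listed genes is read from the 8, and the difference between the libraries was not tested for any of them. Each log2 ratio of immediate-early-high to other cells is given for WT first and VEGF/LysM second.

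The chemokine gene Ccl2 had 1.56 and -1.22, from 12 and 1 member UMIs, and Cxcl1 had 0.73 and -0.87, from 18 and 2. Nfkb2, a subunit of NF-kB, had 0.68 and -0.75. The phosphatase gene Dusp8 had 0.78 and -0.59, with 19 and 4 UMIs.

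Hba-a2, the alpha-globin gene of red cells, had -0.81 and 3.04, and 1 VEGF/LysM member held all of its 289 UMIs. Pdk4, a brake on pyruvate oxidation, had -1.15 and 1.07. Rgs5, which marks pericytes, had 0.62 and -1.78, from 24 and 4 UMIs. Stmn2, of the arterial list, had 1.02 and -1.75, and 1 WT member held 55.6% of its 9 UMIs there.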

How the results depend on the processing

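No paired analysis was possible because each group had 1 library. The alternatives matched the comparison cells on depth or vessel cluster, or changed the gate, the cell and gene filters, the doublet treatment or the averaging. Those without cells carrying other-cell transcripts and without the cell with most UMIs of a gene were chosen after seeing the data. Of the values recomputed, 1083 stayed the same by direction and counting error, 76 moved and 11 reversed.

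The genes higher in both libraries numbered 731 under the stricter gate (8 UMIs and 0.5%, with 19 WT and 7 VEGF/LysM members, 46 genes shared with the 158), 257 with the gate after thinning (62 shared) and 298 with a minimum of 20 UMIs. Of the 302 lower genes, 5 were shared under the stricter gate and 63 after thinning. Between libraries, 20 genes were higher and 15 lower under the stricter gate, and 96 and 137 after thinning, with fewer genes measured. Under the stricter gate the shares were 0.322% and 0.195% (difference -0.127 points), with 2 gate UMIs of 1000 they were 13.5% and 6.85% (-6.69 points), with 4 they were 3.08% and 1.55%, and the stricter cell filter gave 7.21% in WT (-3.63 points). The direction of that difference did not change. The median of the transcription factors was 1.30 in WT, of continuous capillary genes -0.43 in WT and of chaperones 0.70 in VEGF/LysM under the stricter gate, and the continuous capillary median in VEGF/LysM was -0.28 with clusters matched. The highest cluster share after thinning was 4.81% in WT and 2.72% in VEGF/LysM, the lowest 0.797% in VEGF/LysM, and resolution 0.5 gave a highest share of 10.5% there. The cause of these moves was not tested.

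Reversed were Ly6d without its leading cell (-2.17 in WT, -1.18 in VEGF/LysM) and after thinning in VEGF/LysM (-0.11), and in VEGF/LysM Ctgf after thinning (-1.78), Cited2 without its leading cell (-0.26) or without cells carrying other-cell transcripts (-0.082), and Hmcn1 under the stricter gate (0.46). Without cells carrying other-cell transcripts the ratios of VEGF/LysM to WT members were -1.33 for Hba-a2, -1.62 for Hba-a1, -0.998 for Hbb-bs and -1.77 for Hbb-bt.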
